A study of Mus musculus with 12 samples.

Results

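Solute carriers are membrane proteins that move amino acids, sugars, nucleosides, metals, protons and metabolites across the plasma membrane, the mitochondrial inner membrane and the membranes of lysosomes and the Golgi. T cells raise several of them when they are activated and begin to grow, because amino acids, lactate, iron and phosphate have to cross membranes for that growth. The genes described here are those whose symbol is Slc, a number, the letter a and a number. Of 169 symbols of that form, 3 were set aside by name (Slc6a19, Slc2a1 and Slc2a3) and 1 as a pseudogene, which left 165 of the 12809 genes in the table. The pattern takes in 4 genes whose names carry a suffix and that encode no transporter, among them Slc9a3r1, a membrane scaffold protein. It leaves out carriers whose names use another letter, such as the nucleotide sugar transporters of the Slc35b group. A total of 152 members reached 1 CPM (a read count scaled to a common library size) in 3 or more libraries and were tested, and the other 13 are given by their levels.

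RNA was sequenced from CD4 and CD8 T cells sorted from lymph nodes of C57BL/6 (B6) and FlipFlop mice, with 3 libraries in each of the 4 groups. All mice were female, and by the labels the B6 mice were 10 weeks old and the FlipFlop mice 14 weeks, although the age range that the study's methods give for mice in general ends below the latter. FlipFlop mice carry on both copies of chromosome 6 the allele Cd4CD8Cd8CD4, in which the Cd8 locus encodes the CD4 coreceptor and the Cd4 locus encodes the CD8 coreceptor. The rearranged Cd8 locus came from 129 embryonic stem cells and the rearranged Cd4 locus from B6 embryonic stem cells, and a part of the 129 genome remains in these mice. Strain, age and remaining 129 sequence therefore cannot be told apart in any FlipFlop against B6 difference. The sort used the coreceptor protein, which in FlipFlop mice stands on cells of the opposite lineage from that in B6 mice.

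The lineage factors place the 4 groups as follows. Zbtb7b, which encodes the helper lineage factor ThPOK, was at 196 ± 5.99 CPM (mean ± SD, n = 3) in CD4 T cells of B6 mice, 168 ± 5.62 in CD8 T cells of FlipFlop mice, 1.55 ± 0.416 in CD8 T cells of B6 mice and 2.29 ± 0.464 in CD4 T cells of FlipFlop mice. Runx3, the cytotoxic lineage factor, was at 63.9 ± 7.15, 57.2 ± 7.802, 111 ± 11.5 and 138 ± 8.403 CPM in that order. The coreceptor transcripts Cd4 averaged 1022, 42.2, 1.46 and 669.7 CPM, Cd8a 0.946, 145, 1489 and 0.921 CPM and Cd8b1 23.8, 137, 1885 and 1829 CPM, again in that order. Below, the helper lineage means B6 CD4 and FlipFlop CD8 T cells, and the cytotoxic lineage means B6 CD8 and FlipFlop CD4 T cells.

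By the value of a single read, the listed genes held about 26600000 to 33100000 reads per library, at which 3 reads came to 0.0857 to 0.120 CPM. No pair among the 66 pairs of libraries held identical values. T cell markers summed to 3669.9 to 5372 CPM, against 39.7 to 75.1 CPM for B cell, 55.6 to 101 CPM for myeloid and 6.67 to 28.8 CPM for red cell markers. The macrophage marker Adgre1, the NK cell marker Ncr1 and the red cell marker Alas2 were not among the listed genes. All 7 markers of regulatory T cells were higher in the helper lineage, and summed to 389 to 481 CPM in B6 CD4 libraries, 965 to 1134 in FlipFlop CD8, 65.1 to 72.6 in B6 CD8 and 74.4 to 78.3 in FlipFlop CD4 libraries. The 7 markers of dividing cells were also called higher in the helper lineage, with sums of 53.6 to 80.6, 157 to 246, 38.9 to 46.5 and 48.2 to 65.5 CPM in that order. Memory or effector T cell markers summed to 366 to 463, 788 to 1142, 845 to 934 and 499.9 to 580.5 CPM, and naive T cell markers to 5039 to 5228, 4071 to 4289, 5316 to 5409.5 and 5065 to 5603 CPM, again in that order. In such sorted pools, more cells of a subset and more RNA per cell cannot be told apart. Markers of T cells at large and of other cells also moved with strain or lineage. Of the 7 tested T cell markers 4 were lower in FlipFlop T cells and 5 were lower in FlipFlop CD8 than in B6 CD4 T cells, with none higher in either comparison and sums of 4379 to 5372, 3669.9 to 4139.7, 4051 to 4092 and 3953 to 4300.4 CPM in the order of groups above. The 4 tested red cell markers were all called lower in FlipFlop T cells, with sums of 22.1 to 28.8, 9.62 to 14.2, 15.9 to 25.2 and 6.67 to 14.2 CPM in the same order of groups. Of 7 tested B cell markers 3 were lower in FlipFlop T cells, 1 was higher (Cd22) and 1 lower (Cd79b) in the helper lineage, with sums of 54.3 to 72.1, 46.8 to 54.2, 53.98 to 75.1 and 39.7 to 61 CPM. Of 7 tested myeloid markers 3 were lower in FlipFlop T cells, 3 were higher in the helper lineage and 5 were higher in FlipFlop CD8 than in FlipFlop CD4 T cells, with sums of 88.3 to 101, 73.9 to 90.5, 79.6 to 87.4 and 55.6 to 71.2 CPM. Of 5 tested NK cell markers 1 was higher and 2 were lower in the helper lineage, with sums of 12.4 to 13.8, 21.2 to 37.3, 71.5 to 85.1 and 47.4 to 95.5 CPM. The part of these cells and subsets in the differences below was not tested.

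A gene was said to follow lineage when 3 conditions held. The mean of both helper groups had to differ from the mean of both cytotoxic groups, and B6 CD4 had to differ from B6 CD8 and FlipFlop CD8 from FlipFlop CD4 in that same direction, each at an adjusted p under 0.05 over the 11595 genes tested. No library entered both of these within-strain comparisons. All differences are in log2(CPM + 0.5), a scale that understates changes of genes near or below 1 CPM. Lineage differences are given as helper minus cytotoxic and strain differences as FlipFlop minus B6. By this rule 36 of 152 solute carrier genes followed lineage, 21 of them higher in the helper and 15 higher in the cytotoxic lineage. Among all genes tested, 10.1% followed lineage with the higher level in the helper and 6.88% with the higher level in the cytotoxic lineage, against 13.8% and 9.87% of the solute carriers. In 30 of the 36 the 6 helper libraries and the 6 cytotoxic libraries did not overlap. The 36 were chosen by differences between these same libraries, so this describes them and is no added support. That share was not computed for all genes that follow lineage. Over the tested members 35 had non-overlapping lineages (23.03%), against 16.9% of all genes. The median lineage difference was 0.028 over the members and -0.025 over all genes.

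Of the 21 genes higher in the helper lineage, 11 stayed under 10 CPM in every group and 11 differed by more than 1 on the log2 scale. Of the 15 genes higher in the cytotoxic lineage, 13 averaged over 10 CPM in every group and 3 differed by more than 1. With genes kept only where every group averaged at least 1 CPM, 14 of the 21 and 14 of the 15 remained, each 9.86% of 142 members, against 7.39% and 6.86% of 10444 genes.

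**Figure D1:**
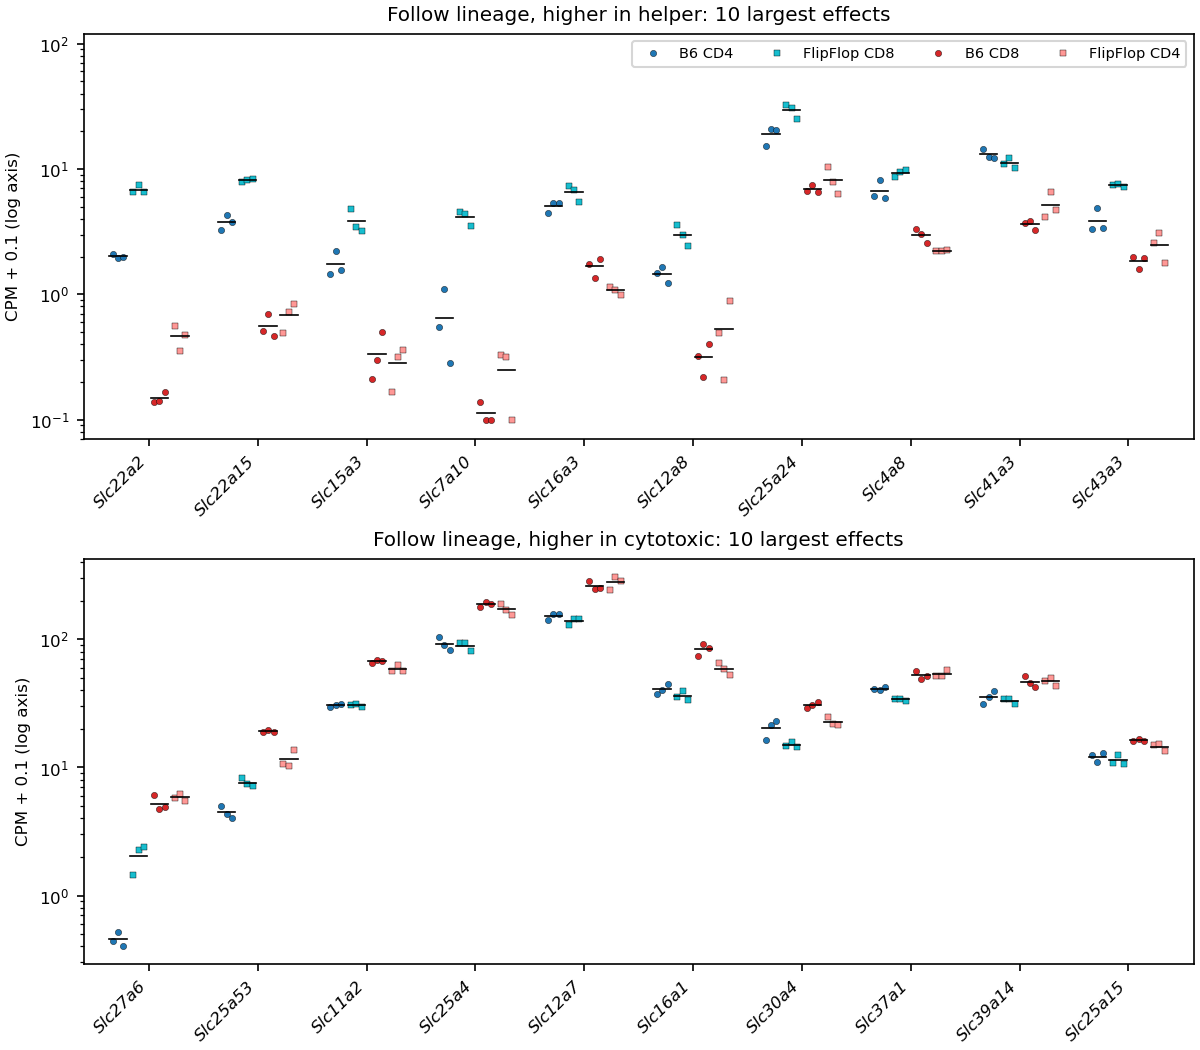
Level of the 10 solute carrier genes with the largest lineage difference in each direction among those that follow lineage, as CPM + 0.1 on a log axis. Points are the 3 libraries of each group (circles B6, squares FlipFlop, blue shades helper, red shades cytotoxic) and lines are group means. In the lower panel the red points lie above the blue points for every gene but Slc30a4, where B6 CD4 and FlipFlop CD4 libraries overlap.

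Slc22a2 and Slc22a15, both members of the organic ion transporter family, had the largest helper differences. Slc22a2 (OCT2, chr17:12584132-12628488, plus strand, mm10) stood at 1.99, 1.84 and 1.899 CPM in B6 CD4 T cells, 6.49, 7.31 and 6.46 in FlipFlop CD8, 0.0374, 0.04002 and 0.0663 in B6 CD8 and 0.4596, 0.254 and 0.372 in FlipFlop CD4 T cells. All B6 CD8 libraries were under the level of 3 reads, so the fold is a lower bound: against that floor of 0.120 CPM, the mean was at least 15.9-fold higher in B6 CD4 and at least 56.3-fold higher in FlipFlop CD8 T cells. On the log2 scale the difference was 2.14 ± 0.13 (SE, adjusted p = 2.1e-07) in B6 and 3.08 ± 0.13 (SE, adjusted p = 8.4e-09) in FlipFlop T cells. Slc22a15 (chr3:101855776-101924453, minus strand) stood at 3.16, 4.197 and 3.68 CPM in B6 CD4 T cells, 7.75, 8.102 and 8.26 in FlipFlop CD8, 0.412, 0.6003 and 0.364 in B6 CD8 and 0.394, 0.616 and 0.744 in FlipFlop CD4 T cells. Its lineage difference was 2.56 ± 0.11 (SE, adjusted p = 3.3e-09). Both genes separated the lineages completely, and both were higher in FlipFlop CD8 than in B6 CD4 T cells. All cytotoxic libraries of both genes were under 1 CPM. Both genes were therefore tested only because of their helper libraries, where they are high.

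The 250 bases before the RefSeq start site (assembly GRCm38.p6) are given for Slc22a2, whose lineage difference was the largest, for the lactate carriers Slc16a3 and Slc16a1, which followed lineage in opposite directions, and for Slc25a24 and Slc3a2, a gene of each lineage whose window holds the core of the RUNX motif (TGTGGT, searched on both strands). They lie at chr17:12583939-12584188, plus strand, chr11:120948817-120949066, plus strand, chr3:104638414-104638663, plus strand, chr3:109122899-109123148, plus strand and chr19:8713898-8714147, minus strand, and capitals mark the core, here on the opposite strand.
Slc22a2: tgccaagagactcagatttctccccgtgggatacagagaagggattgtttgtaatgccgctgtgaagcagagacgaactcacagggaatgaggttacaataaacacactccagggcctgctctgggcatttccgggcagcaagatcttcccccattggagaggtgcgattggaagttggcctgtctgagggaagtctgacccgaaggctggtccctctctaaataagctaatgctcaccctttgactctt
Slc16a3: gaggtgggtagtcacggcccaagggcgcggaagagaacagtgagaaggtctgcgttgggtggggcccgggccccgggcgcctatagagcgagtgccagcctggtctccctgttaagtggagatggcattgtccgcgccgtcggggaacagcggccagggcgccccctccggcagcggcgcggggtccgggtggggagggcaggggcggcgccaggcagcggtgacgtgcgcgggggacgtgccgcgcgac
Slc16a1: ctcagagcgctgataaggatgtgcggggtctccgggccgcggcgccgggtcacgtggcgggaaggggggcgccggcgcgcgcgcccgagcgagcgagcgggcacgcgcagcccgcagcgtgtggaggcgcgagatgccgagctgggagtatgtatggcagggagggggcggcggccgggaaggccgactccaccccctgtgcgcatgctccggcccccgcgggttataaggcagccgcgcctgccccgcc
Slc25a24: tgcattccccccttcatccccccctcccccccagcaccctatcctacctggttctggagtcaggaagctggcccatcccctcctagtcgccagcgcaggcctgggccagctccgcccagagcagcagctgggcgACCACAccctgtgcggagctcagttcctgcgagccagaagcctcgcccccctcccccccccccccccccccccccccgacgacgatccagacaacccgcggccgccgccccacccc
Slc3a2: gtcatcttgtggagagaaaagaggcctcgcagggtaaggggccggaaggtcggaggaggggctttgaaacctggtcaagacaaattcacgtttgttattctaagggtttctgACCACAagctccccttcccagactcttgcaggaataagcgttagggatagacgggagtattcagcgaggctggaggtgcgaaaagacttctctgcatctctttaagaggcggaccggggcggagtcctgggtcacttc

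RefSeq promoters were matched for 123 members, which held 165 windows. The RUNX core stood in 18 of these windows (10.9%), against 14% of 32851 promoter windows of the genome. By windows it was in 5 of the 28 of helper genes (17.9%) and in 1 of the 14 of cytotoxic genes (7.14%), which came from 4 of 17 matched helper genes and 1 of 11 matched cytotoxic genes. The other helper genes with the core were Slc29a1, Slc38a7 and Slc39a8. In the Slc25a24 window it began 116 bases and in the Slc3a2 window 138 bases before the start. The amino acid response element TGATGNAA, also searched on both strands, was in 3.45% of all windows, in 4 of the members' 165 (2.42%) and in no window of a gene that followed lineage. A match of these letters is a description of the window only.

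Grouped by family, 7 of the 23 tested amino acid and peptide carriers (30.4%) followed lineage to the helper side, against 10.1% of all genes. Of these, Slc15a1, Slc15a3 and Slc7a10 passed the filter on low values only through helper libraries. Among genes averaging at least 1 CPM in every group, 4 of 20 (20%) did, against 7.39% of all genes. Slc43a3 is counted among them by its family. The lineage difference averaged over the strains was less one-sided. It was called in 7 of 19 amino acid carriers to the helper and 5 to the cytotoxic side, with a class median of 0.016. In the 4 peptide carriers it was called in 2 and 0, with a median of 0.54. Among all genes 19.9% and 19.4% were called to the helper and cytotoxic sides. Slc15a3, a lysosomal transporter of histidine and dipeptides, stood at 1.35, 2.13 and 1.47 CPM in B6 CD4 T cells, 4.72, 3.34 and 3.09 in FlipFlop CD8, 0.112, 0.2001 and 0.398 in B6 CD8 and 0.0657, 0.217 and 0.2603 in FlipFlop CD4 T cells. Its groups did not overlap between the lineages, and the difference was 2.08 ± 0.15 (SE, adjusted p = 3.2e-07). In the annotation 28.1% of its exonic bases also lie in Tmem132a. Slc7a10, the Asc-1 carrier of small neutral amino acids, stood at 0.451, 1.001 and 0.184 CPM in B6 CD4 T cells, 4.403, 4.23 and 3.43 in FlipFlop CD8, 0.0374, 0 and 0 in B6 CD8 and 0.2298, 0.217 and 0 in FlipFlop CD4 T cells, and 17.9% of its exonic bases also lie in Lrp3. FlipFlop CD8 libraries were above all others. The difference in B6 mice, 0.95 ± 0.26 (SE, adjusted p = 0.017), passed the test, and the gene no longer followed lineage without B6 CD4 replicate 2 or B6 CD8 replicate 2. Against the floor of 0.120 CPM in B6 CD8 T cells its mean was at least 33.5-fold higher in FlipFlop CD8 T cells. Slc43a3, a purine nucleobase carrier in a family of amino acid carriers, stood at 3.19, 4.78 and 3.31 CPM in B6 CD4 T cells, 7.296, 7.44 and 7.14 in FlipFlop CD8, 1.87, 1.48 and 1.86 in B6 CD8 and 2.46, 2.97 and 1.67 in FlipFlop CD4 T cells, a difference of 1.19 ± 0.13 (SE, adjusted p = 1.1e-05). Slc15a1, the intestinal peptide carrier, and Slc1a4, the ASCT1 carrier of alanine, serine and cysteine, differed by 1.04 ± 0.14 and 0.85 ± 0.13, both below 4 CPM in every library. Slc15a1 lost its call without any one of the B6 CD4 libraries. Slc38a9, the lysosomal arginine sensor of the mTORC1 pathway, was higher by a smaller 0.31 ± 0.057 (SE, adjusted p = 0.00088), from 10.3 and 10.8 CPM in the cytotoxic groups to 12.6 and 13.9 CPM in the helper groups. The single amino acid gene that followed lineage to the cytotoxic side was Slc3a2, the CD98 heavy chain that carries LAT1 to the membrane, at 135 and 123 CPM against 113 and 102 CPM, a difference of -0.26 ± 0.061 (SE, adjusted p = 0.0046). Its call was lost in 9 of the 12 fits that left out 1 library each.

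The proton-coupled lactate carriers differed in opposite directions. Slc16a1 (MCT1, chr3:104638668-104658462, plus strand) stood at 37.2, 39.9 and 44.7 CPM in B6 CD4 T cells, 35.2, 39.8 and 33.6 in FlipFlop CD8, 74.4, 92.7 and 85.5 in B6 CD8 and 64.8, 58.3 and 52.6 in FlipFlop CD4 T cells. Every cytotoxic library was above every helper library, and B6 CD8 T cells were above FlipFlop CD4 T cells as well. Its lineage difference was -0.86 ± 0.076 (SE, adjusted p = 1.7e-06). Slc16a3 (MCT4, chr11:120948480-120960868, plus strand), the carrier usually linked to lactate export, stood at 4.32, 5.23 and 5.24 CPM in B6 CD4 T cells, 7.200, 6.71 and 5.34 in FlipFlop CD8, 1.65, 1.24 and 1.82 in B6 CD8 and 1.05, 0.979 and 0.892 in FlipFlop CD4 T cells. Here every helper library was above every cytotoxic library, and the difference was 1.81 ± 0.10 (SE, adjusted p = 4.1e-08). Per kilobase of exon, Slc16a1 stayed the more abundant of these carriers in all 4 groups, with 9.17, 8.17, 19.02 and 13.2 CPM per kb in B6 CD4, FlipFlop CD8, B6 CD8 and FlipFlop CD4 T cells against 0.927, 1.21, 0.295 and 0.183 CPM per kb of Slc16a3.

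Metal transporters were split as well, with 3 genes on the helper and 4 on the cytotoxic side of 22 tested (13.6% and 18.2%, against 10.1% and 6.88% of all genes). Slc11a2 (DMT1, chr15:100387898-100425072, minus strand), which carries ferrous iron across endosomal and plasma membranes, stood at 29.3, 30.8 and 31.4 CPM in B6 CD4 T cells, 30.6, 31.4 and 29.5 in FlipFlop CD8, 65.8, 68.7 and 67.3 in B6 CD8 and 56.3, 63.4 and 56.7 in FlipFlop CD4 T cells. Helper groups of both strains lay within 29.3 to 31.4 CPM, below all 6 cytotoxic libraries, and the difference was -1.03 ± 0.046 (SE, adjusted p = 4.2e-09). The zinc importer Slc39a14 (ZIP14) was higher in the cytotoxic lineage at 46.6 and 46.8 CPM against 35.4 and 33.05 CPM, a difference of -0.44 ± 0.071 (SE, adjusted p = 0.0003), and the call was lost without B6 CD8 replicate 1. Its close relative Slc39a8 (ZIP8) was higher in the helper lineage, at 5.76 and 6.59 CPM against 3.71 and 3.102 CPM, with 0.78 ± 0.095 (SE, adjusted p = 3.1e-05). Slc41a3, of a magnesium transporter family, stood at 14.4, 12.4 and 12.1 CPM in B6 CD4 T cells, 10.8, 12.1 and 10.1 in FlipFlop CD8, 3.595, 3.76 and 3.18 in B6 CD8 and 4.07, 6.45 and 4.57 in FlipFlop CD4 T cells, without overlap of the lineages and with a difference of 1.41 ± 0.10 (SE, adjusted p = 3.6e-07). The zinc exporters Slc30a4 (ZnT4) and Slc30a9 were both higher in the cytotoxic lineage, with differences of -0.59 ± 0.08 and -0.25 ± 0.051. The Slc30a9 call was lost in 9 of 12 leave-one-out fits.

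Mitochondrial carriers were the largest class, with 38 members and 36 tested, of which 3 followed lineage on the helper and 5 on the cytotoxic side (8.33% and 13.9%, against 10.1% and 6.88% of all genes). Slc25a4 (ANT1, chr8:46206797-46211284, minus strand), an exchanger of ADP and ATP, stood at 104, 91.1 and 82.6 CPM in B6 CD4 T cells, 93.2, 94.1 and 81.3 in FlipFlop CD8, 179, 195 and 189 in B6 CD8 and 188, 171 and 155 in FlipFlop CD4 T cells. The lineages did not overlap, and the difference was -0.97 ± 0.07 (SE, adjusted p = 2.6e-07). Its paralog Slc25a5 (ANT2), the most abundant member per kilobase, had a lineage difference of -0.14 ± 0.059 (SE, adjusted p = 0.081), with group means of 497, 401, 529 and 458 CPM in B6 CD4, FlipFlop CD8, B6 CD8 and FlipFlop CD4 T cells. Slc25a24, a carrier that exchanges ATP-Mg for phosphate, was higher in the helper lineage at 15.2, 20.8 and 20.5 CPM in B6 CD4 T cells, 32.4, 30.8 and 25.1 in FlipFlop CD8, 6.59, 7.36 and 6.43 in B6 CD8 and 10.3, 7.72 and 6.17 in FlipFlop CD4 T cells, a difference of 1.61 ± 0.12 (SE, adjusted p = 4.6e-07). A carrier of the same kind, Slc25a23, was also higher in the helper lineage, by 0.69 ± 0.068 (SE, adjusted p = 4.7e-06). Slc25a53, a mitochondrial carrier whose substrate is not established, stood at 4.88, 4.26 and 3.92 CPM in B6 CD4 T cells, 8.16, 7.34 and 7.09 in FlipFlop CD8, 18.8, 19.5 and 18.98 in B6 CD8 and 10.6, 10.3 and 13.6 in FlipFlop CD4 T cells. All cytotoxic libraries were above all helper libraries, but the gap was wider in B6, -2.02 ± 0.12 (SE, adjusted p = 1.1e-07), than in FlipFlop T cells, -0.57 ± 0.12 (SE, adjusted p = 0.0027). The difference between those gaps passed its own test, as given with the coreceptor effect below. Slc25a15, a mitochondrial ornithine carrier, differed by -0.38 ± 0.065 (SE, adjusted p = 0.0005), and lost its call without FlipFlop CD4 replicate 2 or FlipFlop CD8 replicate 3. Slc25a51, the mitochondrial carrier of NAD, and Slc25a30 differed by -0.27 ± 0.051 and -0.36 ± 0.063. The citrate carrier Slc25a1 was higher in the helper lineage by 0.33 ± 0.071 and kept its call in 4 of 12 leave-one-out fits.

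Of 6 tested chloride cotransporters 1 followed lineage to the helper and 2 to the cytotoxic side (16.7% and 33.3%, against 10.1% and 6.88% of all genes). The helper gene, Slc12a8, passed the filter on low values only through helper libraries. Among genes averaging at least 1 CPM in every group, 0 of 5 followed lineage to the helper and 2 to the cytotoxic side (0% and 40%, against 7.39% and 6.86%). Of 8 tested carriers of acid, sodium and bicarbonate balance 2 followed it to the helper side (25%) and none to the cytotoxic side. Slc12a7 (KCC4, chr13:73733094-73816754, plus strand), a potassium chloride cotransporter, stood at 141, 157 and 157 CPM in B6 CD4 T cells, 130.3, 145 and 144 in FlipFlop CD8, 287, 248 and 249.8 in B6 CD8 and 244, 306 and 286 in FlipFlop CD4 T cells. This was the most abundant member that followed lineage, in CPM, and both cytotoxic groups were above both helper groups, with a difference of -0.89 ± 0.066 (SE, adjusted p = 3.8e-07). Slc12a4 (KCC1), of the same group, went the same way with -0.32 ± 0.056 (SE, adjusted p = 0.00061). Slc12a8, a distant member of that family, was higher in the helper lineage at 1.39, 1.55 and 1.13 CPM in B6 CD4 T cells, 3.503, 2.88 and 2.31 in FlipFlop CD8, 0.225, 0.1201 and 0.298 in B6 CD8 and 0.394, 0.109 and 0.781 in FlipFlop CD4 T cells, by 1.65 ± 0.17 (SE, adjusted p = 8.6e-06). The sodium-driven chloride bicarbonate exchanger Slc4a8 stood at 5.97, 8.07 and 5.82 CPM in B6 CD4 T cells, 8.55, 9.33 and 9.802 in FlipFlop CD8, 3.22, 2.92 and 2.45 in B6 CD8 and 2.101, 2.102 and 2.16 in FlipFlop CD4 T cells, a difference of 1.48 ± 0.095 (SE, adjusted p = 9.8e-08) with no overlap between lineages. Slc12a4 kept the call in 8 of 12 leave-one-out fits.

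Slc27a6 (FATP6, chr18:58556257-58612773, plus strand), a fatty acid transporter, had the largest cytotoxic difference. It stood at 0.338, 0.4197 and 0.306 CPM in B6 CD4 T cells, 1.35, 2.18 and 2.29 in FlipFlop CD8, 5.95, 4.602 and 4.804 in B6 CD8 and 5.71, 6.16 and 5.35 in FlipFlop CD4 T cells. FlipFlop CD8 T cells held a level between B6 CD4 and the cytotoxic groups, so that the difference was -2.71 ± 0.16 (SE, adjusted p = 1.6e-07) in B6 and -1.38 ± 0.16 (SE, adjusted p = 4e-05) in FlipFlop T cells. Slc37a1, a glucose-6-phosphate phosphate exchanger of the endoplasmic reticulum, was higher in the cytotoxic lineage at 52.3 and 53.6 CPM against 41.2 and 33.96 CPM, with -0.49 ± 0.049 (SE, adjusted p = 4.9e-06). On the helper side stood Slc48a1, a heme transporter, with 0.41 ± 0.048 (SE, adjusted p = 2e-05), and Slc29a1 (ENT1), the equilibrative nucleoside transporter, with 0.27 ± 0.053 (SE, adjusted p = 0.0013). Slc39a13, a zinc transporter of the early secretory pathway, differed by 0.33 ± 0.062 (SE, adjusted p = 0.00098). Of the 12 leave-one-out fits, the call was kept in 7 for Slc29a1, in 8 for Slc25a51 and in 9 for Slc38a9 and Slc39a13. No member of the sugar, vitamin or phosphate and sulfate classes followed lineage, out of 19 tested genes (7, 7 and 5), against 10.1% and 6.88% of all genes on the helper and cytotoxic sides. At an unadjusted p under 0.05 in the limma fit 2 of them did, Slc46a1 and Slc5a3. The lineage difference averaged over the strains was called in 5 of the 19 to the helper and 2 to the cytotoxic side (26.3% and 10.5%, against 19.9% and 19.4%).

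**Figure D2:**
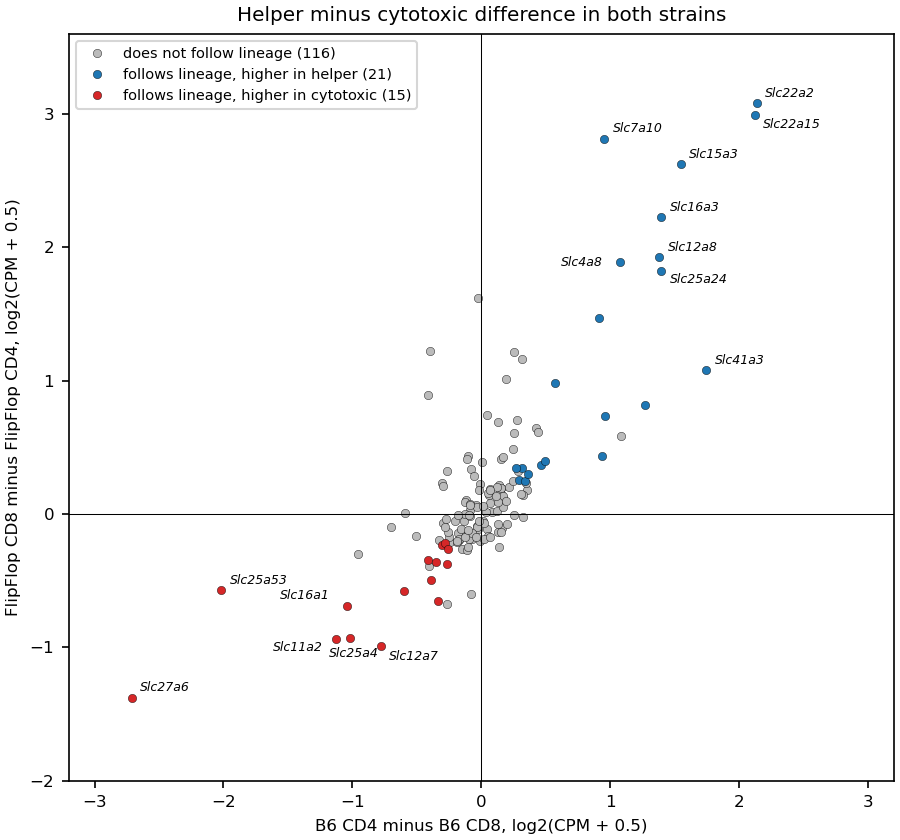
Helper minus cytotoxic difference of the 152 tested solute carrier genes in B6 (x axis) and FlipFlop T cells (y axis), both in log2(CPM + 0.5). Each point is a gene. The 21 blue genes follow lineage toward the helper and the 15 red genes toward the cytotoxic side, and the grey gene Slc39a4 lies at 1.62 on the FlipFlop and -0.024 on the B6 axis.

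Lineage calls that did not need both strains were more frequent. A difference between the lineages averaged over the strains was called in 42 members higher in the helper (27.6%) and 27 higher in the cytotoxic lineage (17.8%), against 19.9% and 19.4% of all genes. Within B6 mice 47 members were called (26 higher in CD4 and 21 higher in CD8 T cells, 30.9%, against 25.4% of all genes). Within FlipFlop mice 56 were called (38 higher in CD8 and 18 higher in CD4 T cells, 36.8%, against 31.3%). Of the 69 members with an average lineage difference, 14 were called in FlipFlop but not in B6 T cells, 9 in B6 but not in FlipFlop, and 10 in neither. This split was not made for all genes, which were also called more often in FlipFlop than in B6 T cells. At the limits of the study's heat map, an unadjusted p under 1e-04 and more than a 5-fold change, 2 members passed for lineage (1.32%) against 1.61% of all genes. They were Slc22a2 and Slc22a15, which both passed the filter on low values only through helper libraries. The split of directions rests on the scaling. Without the authors' TMM factor the median of all genes moved by 0.12 toward the helper lineage, 65 members were called higher in the helper and 17 in the cytotoxic lineage, and 27 and 9 followed lineage. The 6 cytotoxic genes that then lost the call were Slc3a2, Slc12a4, Slc25a30, Slc25a15, Slc25a51 and Slc30a9. The corresponding splits were 32 and 16 in B6, and 61 and 11 in FlipFlop T cells. The shift applied to all genes, and their shares without the TMM factor were not computed.

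A gene was said to follow strain when the mean of both FlipFlop groups differed from that of both B6 groups and the difference was also called, with the same sign, within the cytotoxic lineage (FlipFlop CD4 minus B6 CD8) and within the helper lineage (FlipFlop CD8 minus B6 CD4). The helper and the cytotoxic comparison were made on different libraries. In all, 4 of 152 members did so, 3 of them higher in FlipFlop (1.97%, against 2.21% of all genes) and 1 higher in B6 T cells (0.658%, against 1.71%). Slc22a2 was higher in FlipFlop T cells by 0.65 ± 0.13 (SE, adjusted p = 0.011) in the cytotoxic and 1.59 ± 0.13 (SE, adjusted p = 1.4e-05) in the helper lineage, and its call was kept in all 12 leave-one-out fits. Against the B6 CD8 floor the FlipFlop CD4 mean was at least 3.01-fold higher. Slc25a37, the mitochondrial iron importer mitoferrin 1, stood at 15.8, 18.98 and 20.6 CPM in B6 CD4 T cells, 23.2, 21.2 and 25.6 in FlipFlop CD8, 18.4, 18.01 and 15.6 in B6 CD8 and 21.9, 22.98 and 24.1 in FlipFlop CD4 T cells. Its FlipFlop libraries were all above its B6 libraries, by 0.37 ± 0.077 (SE, adjusted p = 0.0049). Slc38a7, a lysosomal glutamine exporter, stood at 15.3, 15.6 and 18.1 CPM in B6 CD4 T cells, 20.7, 18.9 and 19.3 in FlipFlop CD8, 12.8, 12.1 and 13.5 in B6 CD8 and 16.2, 16.96 and 16.1 in FlipFlop CD4 T cells, which placed it with strain, 0.31 ± 0.059 (SE, adjusted p = 0.0031), and with lineage, 0.29 ± 0.059 (SE, adjusted p = 0.0016). Its lineage call was lost without any one of the FlipFlop libraries. Slc30a4 was lower in FlipFlop T cells at 16.3, 21.3 and 22.98 CPM in B6 CD4 T cells, 14.6, 15.7 and 14.4 in FlipFlop CD8, 28.99, 30.8 and 32.1 in B6 CD8 and 24.6, 21.7 and 21.3 in FlipFlop CD4 T cells, a difference of -0.43 ± 0.08 (SE, adjusted p = 0.0028). The strain calls of Slc25a37 and Slc38a7 were each kept in 2 of the 12 fits that left out 1 library and that of Slc30a4 in 4. For Slc25a37 these were the fits without B6 CD4 replicate 3 or FlipFlop CD8 replicate 2, for Slc38a7 those without B6 CD4 or B6 CD8 replicate 3, and for Slc30a4 those without B6 CD4 replicate 1, FlipFlop CD4 replicate 1, or FlipFlop CD8 replicate 1 or 2. With the replicate number as a block, 3 members followed strain and Slc25a37 did not. Without the TMM factor 4 were higher in FlipFlop and none in B6 T cells, and 3 of the 4 genes were shared. The shares of all genes without that factor were not computed.

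More members differed between the strains in the helper than in the cytotoxic lineage, by counts of calls that are not a test of the difference. Within the cytotoxic lineage, 4 members were higher and 5 lower in FlipFlop (2.63% and 3.29%, against 4.17% and 3.75% of all genes). In the helper lineage, 28 members were higher and 16 lower (18.4% and 10.5%, against 13.2% and 14.4%). These 44 became 20 without FlipFlop CD8 replicate 2 and 21 without FlipFlop CD8 replicate 3, and the 9 of the cytotoxic lineage ranged from 3 without B6 CD8 replicate 2 or FlipFlop CD4 replicate 3 to 17 without B6 CD4 replicate 1. On the average of both lineages, 29 members were higher in FlipFlop (19.1%, against 15.8%) and 14 higher in B6 T cells (9.21%, against 15.4%). Of these 43, 29 were called in the helper lineage alone, 2 in the cytotoxic lineage alone, 4 in both and 8 in neither. This split was not made for all genes, which by the shares above were also called more often in the helper lineage. In 8 members the 6 FlipFlop and the 6 B6 libraries did not overlap (5.26%, against 5.85%). Without the TMM factor the median of all genes moved by 0.16 toward FlipFlop CD8 T cells in the helper lineage, and the split there became 54 higher and 1 lower. In the cytotoxic lineage it became 6 higher and 3 lower, and averaged over the lineages 45 higher and 5 lower. Such a shift applied to all genes, and their shares without the TMM factor were not computed. With the replicate block, 27 members were called for strain on average, in place of 43.

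**Figure D3:**
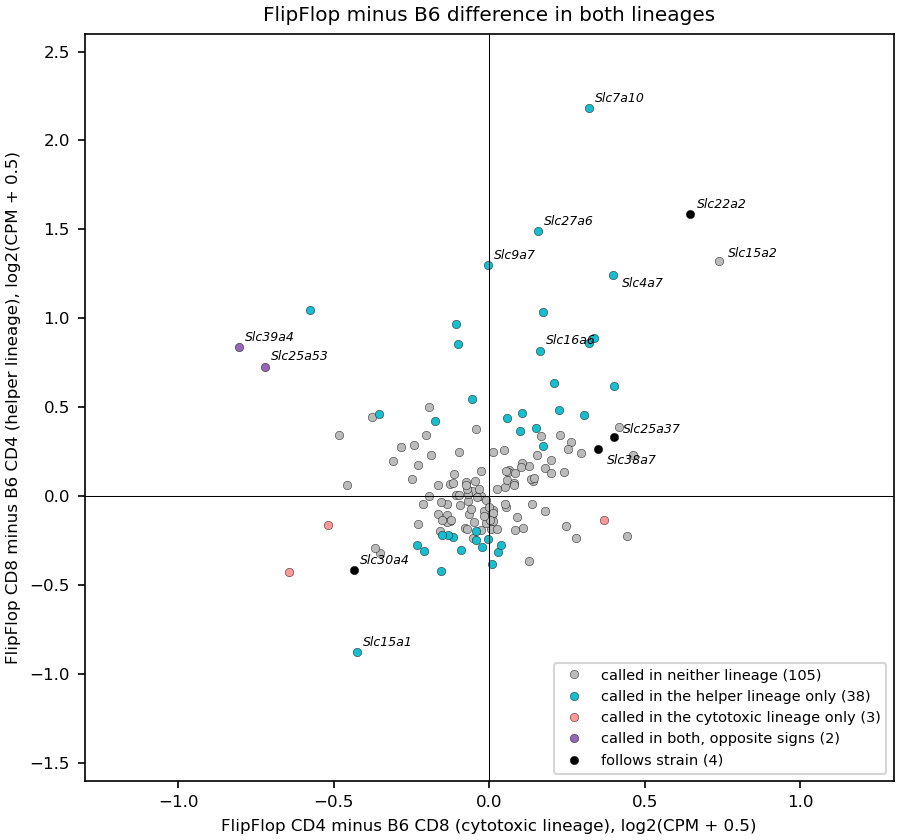
FlipFlop minus B6 difference of the 152 tested solute carrier genes in the cytotoxic (x axis) and the helper lineage (y axis), both in log2(CPM + 0.5). Each point is a gene, colored by where it was called. There 38 genes were called in the helper lineage alone and 3 in the cytotoxic lineage alone, and Slc39a4 and Slc25a53 moved in opposite directions.

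The largest called rises in FlipFlop CD8 against B6 CD4 T cells were those of Slc7a10 (2.18 ± 0.26) and Slc22a2 (1.59 ± 0.13), which followed lineage to the helper side, and of Slc27a6 (1.49 ± 0.16), which followed it to the cytotoxic side. Of the 21 genes higher in the helper lineage, 9 were higher and 1, Slc15a1, was lower in FlipFlop CD8 than in B6 CD4 T cells (42.9% and 4.76%, against 13.2% and 14.4% of all genes). The 21 were chosen in part by high FlipFlop CD8 libraries, so these counts are not a separate test. The same shares were not computed for all genes that follow lineage to the helper side. Regulatory T cell and dividing cell markers were also higher in FlipFlop CD8 libraries, at the sums given above. The other genes named for the helper lineage were chosen after their values were seen. Slc4a7, a sodium bicarbonate cotransporter, stood at 16.3, 31.2 and 40.3 CPM in B6 CD4 T cells, 58.5, 71.5 and 68.05 in FlipFlop CD8, 20.5, 22.97 and 22.5 in B6 CD8 and 24.98, 30.01 and 32.9 in FlipFlop CD4 T cells. FlipFlop CD8 libraries were above all others, by 1.25 ± 0.24 (SE, adjusted p = 0.0038) against B6 CD4 T cells. Slc9a7, a sodium proton exchanger of the Golgi, stood at 3.08, 8.04 and 6.89 CPM in B6 CD4 T cells, 15.7, 14.7 and 13.1 in FlipFlop CD8, 7.41, 7.84 and 7.52 in B6 CD8 and 6.796, 7.21 and 8.81 in FlipFlop CD4 T cells, again with FlipFlop CD8 libraries above all others. Slc43a1 (LAT3), a carrier of large neutral amino acids, was at 1.05, 1.48 and 1.41 CPM in B6 CD4 T cells, 4.72, 2.94 and 2.37 in FlipFlop CD8, 1.91, 2.04 and 1.69 in B6 CD8 and 0.821, 1.01 and 1.52 in FlipFlop CD4 T cells, a helper-lineage difference of 1.05 ± 0.22 (SE, adjusted p = 0.0063). Its relative Slc43a2 (LAT4) was lowest in B6 CD4 T cells, with 49.8, 62.4 and 56 CPM in B6 CD4 T cells, 83.02, 80.8 and 81.5 in FlipFlop CD8, 95.3, 93.8 and 84.5 in B6 CD8 and 82.3, 92.9 and 88.2 in FlipFlop CD4 T cells. It differed between the strains in the helper lineage by 0.55 ± 0.085 (SE, adjusted p = 0.00092) and had a difference of -0.054 ± 0.085 (SE, adjusted p = 0.76) in the cytotoxic lineage. Slc16a6, a monocarboxylate family member, was also lowest in B6 CD4 T cells (5.22, 7.91 and 9.56 CPM) and 13.4, 14.8 and 16.7 CPM on average in FlipFlop CD8, B6 CD8 and FlipFlop CD4 T cells. Of its exonic bases, 23.5% lie in other genes.

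Of the 16 members lower in FlipFlop CD8 than in B6 CD4 T cells, 7 were mitochondrial carriers, which is 19.4% of the 36 tested carriers of that class against 14.4% of all genes. Another 3 (8.33%, against 13.2%) were higher. Without the TMM factor, which shifted this comparison by 0.16, none of these 7 was called lower and 7 carriers of the class were called higher. Of 19 tested amino acid carriers 8 were higher and 1 was lower (42.1% and 5.26%, against 13.2% and 14.4%), and 13 and 0 without the TMM factor. The shift by 0.16 applied to all genes, and their shares without that factor were not computed. Slc25a5 fell from 536, 473 and 481 CPM in B6 CD4 to 421, 403 and 379.7 CPM in FlipFlop CD8 T cells, a difference of -0.31 ± 0.084 (SE, adjusted p = 0.02). The phosphate carrier Slc25a3 (-0.23 ± 0.078), the oxoglutarate carrier Slc25a11 (-0.30 ± 0.072), the aspartate glutamate carrier Slc25a12 (-0.29 ± 0.07) and the glycine carrier Slc25a38 (-0.42 ± 0.11) were also lower. In the cytotoxic lineage the members lower in FlipFlop T cells were Slc16a1 (-0.52 ± 0.11), the aromatic amino acid carrier Slc16a10 (-0.64 ± 0.18), Slc25a53 (-0.72 ± 0.12), Slc30a4 (-0.44 ± 0.11) and Slc39a4 (-0.81 ± 0.096).

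No member followed the coreceptor protein, against 0.44% of all genes. At an unadjusted p under 0.05 in the limma fit 1 did, Slc39a6. The coreceptor effect, the mean of both CD4 groups minus that of both CD8 groups, also tests whether the strain difference is unequal in the cytotoxic and the helper lineage. It was called in 13 members (8.55%, against 5.49%), 12 of them higher in the CD8 groups, and in 23 members with the replicate block. Without FlipFlop CD8 replicate 2 it was called in 6, without FlipFlop CD4 replicate 2 in 7, and without B6 CD8 replicate 1 or FlipFlop CD4 replicate 1 in 8 members. Slc39a4 (ZIP4), a zinc importer, had the smallest adjusted p among them. It stood at 9.05, 9.33 and 9.28 CPM in B6 CD4 T cells, 18.7, 17 and 15.1 in FlipFlop CD8, 8.58, 9.52 and 10.1 in B6 CD8 and 5.12, 5.36 and 4.98 in FlipFlop CD4 T cells. B6 CD4 and B6 CD8 T cells overlapped, -0.024 ± 0.096 (SE, adjusted p = 0.89), while FlipFlop CD8 libraries were all above and FlipFlop CD4 libraries all below the B6 libraries, 1.62 ± 0.096 (SE, adjusted p = 1e-07). The coreceptor effect of Slc39a4 was -0.82 ± 0.068 (SE, adjusted p = 3.4e-05) and that of Slc25a53 was -0.72 ± 0.083 (SE, adjusted p = 0.00036). Slc39a4 was thus called for lineage on average, 0.80 ± 0.068 (SE, adjusted p = 1.2e-06), and not called in B6 mice.

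The list of nutrient transporters known from T cells held 30 genes, of which 29 were tested. Of these 5 followed lineage to the helper and 3 to the cytotoxic side (17.2% and 10.3%, against 10.1% and 6.88% of all genes), and none followed strain, against 5 (Slc1a5, Slc6a6, Slc36a1, Slc25a5 and Slc38a2) at an unadjusted p under 0.05 in the limma fit. Of its genes, 7 were called higher in the helper and 8 higher in the cytotoxic lineage on average (24.1% and 27.6%, against 19.9% and 19.4%), and the median difference was -0.0098. Slc7a5 (LAT1), the leucine carrier that pairs with CD98, stood at 73.1, 89.8 and 80.6 CPM in B6 CD4 T cells, 74.5, 71.5 and 75.5 in FlipFlop CD8, 93.4, 101 and 83.9 in B6 CD8 and 86.9, 83.5 and 84.1 in FlipFlop CD4 T cells. The groups overlapped, with a lineage difference of -0.20 ± 0.059 (SE, adjusted p = 0.02) and with -0.19 ± 0.084 (SE, adjusted p = 0.12) in B6 mice. The lineage call was lost without B6 CD8 replicate 2 or FlipFlop CD8 replicate 2. The glutamine carrier Slc38a1 (SNAT1) was at 114, 163 and 177 CPM in B6 CD4 T cells, 181, 182 and 166 in FlipFlop CD8, 216, 207 and 209.9 in B6 CD8 and 199.7, 211 and 183 in FlipFlop CD4 T cells. Its cytotoxic libraries were above its helper libraries, with a difference of -0.33 ± 0.092 (SE, adjusted p = 0.012), and it was called in B6, -0.51 ± 0.13 (SE, adjusted p = 0.012), and had -0.16 ± 0.13 (SE, adjusted p = 0.39) in FlipFlop T cells. Slc38a2 (SNAT2) was lower in FlipFlop T cells, with a difference of -0.25 ± 0.058 (SE, adjusted p = 0.0084). Slc1a5 (ASCT2), a glutamine carrier, and Slc6a6, the taurine carrier, were higher in FlipFlop T cells in both lineages on average, by 0.23 ± 0.05 (SE, adjusted p = 0.0068) and 0.38 ± 0.086 (SE, adjusted p = 0.0076). All FlipFlop libraries of both genes lay above all B6 libraries, but the cytotoxic-lineage differences, 0.17 ± 0.071 (SE, adjusted p = 0.17) and 0.30 ± 0.12 (SE, adjusted p = 0.16), did not pass the test. Without the TMM factor the lineage calls of Slc7a5, Slc3a2, Slc7a6, Slc38a1 and Slc20a1 and the strain call of Slc38a2 were lost.

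**Figure D4:**
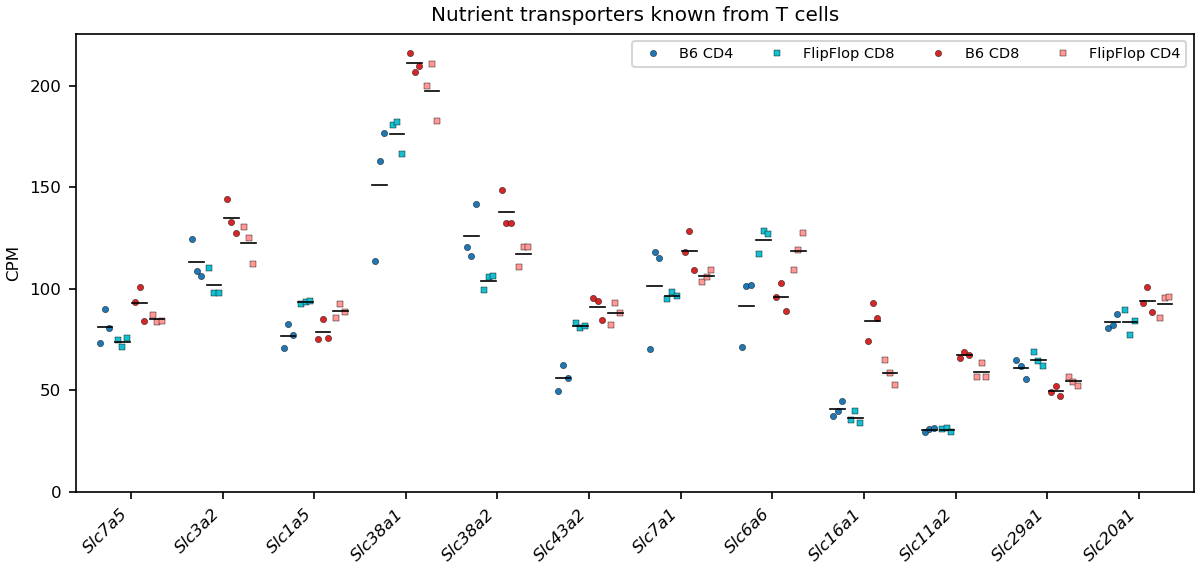
Level in CPM (linear axis from 0) of 12 of the nutrient transporters known from T cells. Points are libraries and lines are group means. Slc16a1 and Slc11a2 separate the cytotoxic from the helper groups in both strains, while Slc1a5 and Slc6a6 are higher in the FlipFlop groups.

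Among the rest of the nutrient list, the arginine carrier Slc7a1 averaged 101, 96.5, 119 and 106 CPM in B6 CD4, FlipFlop CD8, B6 CD8 and FlipFlop CD4 T cells, with a lineage difference of -0.20 ± 0.11 (SE, adjusted p = 0.18). Slc7a6, of the same family, was higher in the cytotoxic lineage, with a difference of -0.19 ± 0.053 (SE, adjusted p = 0.013), called in B6 mice alone. The phosphate carrier Slc20a1 was higher in the cytotoxic lineage, with -0.16 ± 0.054 (SE, adjusted p = 0.038), a call lost in 7 of 12 leave-one-out fits, and 13.1% of its exonic bases also lie in 9830144P21Rik or Gm4430. The inositol carrier Slc5a3 and the proton-coupled amino acid carrier Slc36a4 were higher in the helper lineage, by 0.53 ± 0.12 (SE, adjusted p = 0.0049) and 0.49 ± 0.11 (SE, adjusted p = 0.004), both called in FlipFlop but not in B6 T cells. Slc36a1 was higher and Slc15a4 lower in FlipFlop T cells on average, with differences of 0.26 ± 0.069 (SE, adjusted p = 0.015) and -0.33 ± 0.11 (SE, adjusted p = 0.039). The Slc15a4 call was lost in 8 of 12 leave-one-out fits, with the replicate block (random) and without the TMM factor. The zinc importer Slc39a6 had a coreceptor effect of -0.26 ± 0.063 (SE, adjusted p = 0.036) alone among the 3 group-averaged effects, a call lost in 8 of 12 leave-one-out fits and with the replicate block as a fixed term. The sodium potassium chloride cotransporter Slc12a2 had 0.74 ± 0.21 (SE, adjusted p = 0.018) in FlipFlop and 0.044 ± 0.21 (SE, adjusted p = 0.91) in B6 T cells. For the folate carrier Slc19a1, the zinc importer Slc39a10, the zinc exporter Slc30a1 and the sugar carriers Slc2a8 and Slc2a9, neither the lineage nor the strain effect was called.

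Mean levels of the members over the 4 groups ranged from 0.223 to 471 CPM, with a median of 19.97 CPM against 20.6 CPM over all genes. Per kilobase of exon the highest was Slc25a5 with 286 CPM per kb, followed by Slc9a3r1 with 148, the phosphate carrier Slc25a3 with 58.4 and Slc25a4 with 57.5 CPM per kb. The choline transporter-like gene Slc44a2 averaged 43.8 CPM per kb. The 5 members highest in CPM were Slc25a5, Slc44a2, Slc25a3, Slc9a3r1 and Slc12a7, and Slc12a7 alone among them followed lineage. Slc44a2 had a lineage difference of -0.11 ± 0.046 (SE, adjusted p = 0.084), which turned to 0.015 without the TMM factor. Of the 152 tested members 54 (35.5%) were called in no comparison, a share that was not computed for all genes.

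The 13 members that were not tested averaged 1.46 CPM or less in every group, and in 11 of them all 4 groups were under 1 CPM. Among the 13, Slc5a9, a sodium-coupled sugar carrier, was named after its values were seen. It was listed at 0 in all 6 B6 libraries and stood at 2.99, 1.39 and 0 CPM in FlipFlop CD8 and 0.295, 0.181 and 0 CPM in FlipFlop CD4 T cells. The FlipFlop CD8 mean was at least 12.9-fold above the B6 CD4 floor of 3 reads in a library (0.113 CPM), but in FlipFlop replicate 3 both libraries were at 0.

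Transporters without an Slc-a name and genes of the amino acid response were read for comparison. Of 21 listed carriers with other names 18 were tested, and 2 were called higher in the helper and 3 in the cytotoxic lineage (11.1% and 16.7%, against 19.9% and 19.4% of all genes). Slc9b2, a sodium proton exchanger, followed lineage to the helper side at 1.54 and 2.24 CPM against 0.0981 and 0.298 CPM, a difference of 1.78 ± 0.17 (SE, adjusted p = 2.9e-06), and Slco3a1, an organic anion transporter, differed by -0.66 ± 0.068 (SE, adjusted p = 6.2e-06). Slc9b2 passed the filter on low values only through helper libraries. For strain, 2 were higher and 5 lower in FlipFlop T cells (11.1% and 27.8%, against 15.8% and 15.4%), among the latter Sfxn2, a mitochondrial sideroflexin, whose means in the B6 groups were 17.6 (CD4) and 19.6 CPM (CD8) and in the FlipFlop groups 6.88 and 5.05 CPM, a difference of -1.80 ± 0.32 (SE, adjusted p = 0.0022). The Sfxn2 libraries spread widely, from 3.12 to 12.9 CPM in FlipFlop CD4 and from 2.31 to 9.36 CPM in FlipFlop CD8 T cells. Over the 18 tested carriers with other names the median lineage and strain differences were -0.00086 and -0.047.

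Of 16 tested genes of the amino acid response, through which cells raise amino acid synthesis and uptake when amino acids run short, 6 were higher in the helper and 4 in the cytotoxic lineage (37.5% and 25%, against 19.9% and 19.4% of all genes), with a median of 0.12. By the rule that needs both strains, 1 followed lineage to the helper and 3 to the cytotoxic side (6.25% and 18.8%, against 10.1% and 6.88%). Trib3, an inhibitor in that response, averaged 5.49 and 3.97 CPM in the helper groups against 1.46 and 1.39 CPM, a difference of 1.43 ± 0.095 (SE, adjusted p = 1.4e-07). Asns, asparagine synthetase, averaged 0.745 and 2.53 CPM against 0.439 and 0.387 CPM, a difference of 1.09 ± 0.13 (SE, adjusted p = 2.1e-05). It was called in FlipFlop mice, 1.76 ± 0.18 (SE, adjusted p = 1.1e-05), and not in B6 mice, 0.43 ± 0.18 (SE, adjusted p = 0.11), and its coreceptor effect was -0.67 ± 0.13 (SE, adjusted p = 0.0098). Asns passed the filter on low values only through FlipFlop CD8 libraries, where it is high. Shmt2, a mitochondrial enzyme of serine use, was higher in the cytotoxic lineage, at 146 and 145 CPM against 81.03 and 87.1 CPM, a difference of -0.79 ± 0.051 (SE, adjusted p = 1e-07). For strain, 1 gene of this list was higher and 2 were lower in FlipFlop T cells (6.25% and 12.5%, against 15.8% and 15.4%).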

How the data were processed

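RNA from sorted lymph node T cells was made into libraries with the SMARTer Universal Low Input kit and sequenced as paired ends. By the study's methods reads were aligned to mm10 with STAR; the submitters' processing notes list Trimmomatic and TopHat. Strand use in counting is not given in the sources used here. The deposited values are a signal the authors made, by the table's name CPM scaled by TMM with genes filtered (12809 genes, column sums 875501 to 1081793). The counting program and the limit of their filter are not given in the sources used here. Between 85.1% and 86.6% of values under 100 CPM were whole reads within 0.01 reads, too few for a count test. Here log2(CPM + 0.5) was fitted with limma 3.58.1 (R 4.3.3; trend, 1 mean per group, 8 residual degrees of freedom) over the 11595 genes that reached 1 CPM in 3 libraries or more, with Benjamini-Hochberg adjustment and calls under 0.05. Floors are 3 reads in the shallowest library of a group and, like ranges of counts, cover counting error only. Named genes are the 10 largest lineage differences in each direction among genes that follow lineage, those that follow strain, the 5 with the highest CPM and the nutrient list; others are named as examples of their class or as chosen after their values were seen. Members, classes and lists (T cells, B cells, myeloid cells, red blood cells, NK cells, regulatory, memory or effector and naive T cells, dividing cells, other-named carriers, amino acid response, nutrient transporters) were chosen with earlier results of these data known. The labels do not say that libraries came from separate mice, so p-values measure the spread between these libraries, which may be technical. Same-numbered CD4 and CD8 libraries deviated together in FlipFlop mice (r = 0.44, 0.27 and 0.51) but less clearly in B6 mice (0.18, 0.089 and 0.35), so the number was used as a block in an alternative. Coordinates and exon overlap came from GENCODE release M21 (GRCm38, mm10), and promoters from RefSeq GRCm38.p6. Alternatives were other pseudocounts, filters, scalings and thresholds, the block, a fit without the trend, and each library left out.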

Additional observations from a re-analysis of the deposited data

Results flagged for a closer look

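In 69 solute carrier genes (45.4%) the CD4 minus CD8 difference differed between B6 and FlipFlop T cells, by the test of the lineage effect, which is that difference halved. By direction, 27.6% were called to the helper and 17.8% to the cytotoxic side, against 19.9% and 19.4% of all genes. In 13 members (8.55%, against 5.49% of all genes) the FlipFlop minus B6 difference differed between the lineages, by the test of the coreceptor effect. The members with the largest values are given with the lineage and coreceptor results above. No group was tested for single outlying libraries, since each held 3.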

How the results depend on the processing

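The numbers of members called kept within 1.5 times for lineage, and within each strain, under both other pseudocounts, no filter, both scalings, the block and a fit without the trend. Requiring more than a 2-fold change left 14 members for lineage, 2 for strain, 0 for the coreceptor, 15 in B6, 16 in FlipFlop, 0 for FlipFlop CD4 against B6 CD8, 7 for FlipFlop CD8 against B6 CD4, 8 that followed lineage to the helper and 1 to the cytotoxic side, and 0 that followed strain. At an unadjusted p under 1e-04 and more than 5-fold, 2, 0, 0, 1, 4, 0 and 0 were left in the first 7 of these, and 0 followed lineage on either side or strain. At an adjusted p under 0.01, 19 remained for strain, 3 for the coreceptor, 2 and 15 for FlipFlop against B6 in the cytotoxic and helper lineage, 8 that followed lineage to the cytotoxic side and 0 that followed strain. With genes averaging at least 5 CPM, 6 were called for the coreceptor and 11 followed lineage to the helper side, of the fewer genes tested. With every group averaging at least 1 CPM, a choice made after seeing the data, 8 were called for the coreceptor. Without the TMM factor 9 followed lineage to the cytotoxic side, and the lineage difference of Slc44a2 reversed to 0.0152. The replicate block (random) gave 27 for strain and 23 for the coreceptor and changed no other of these counts by over 1.5 times; as a fixed term it gave 80 for lineage and could not be fitted to strain differences.

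Leaving out each library in turn gave 58 to 82 members for lineage, 29 to 43 for strain, 6 to 13 for the coreceptor, 39 to 54 in B6 and 42 to 68 in FlipFlop T cells. FlipFlop CD4 against B6 CD8 gave 3 to 17, with 17 without B6 CD4 replicate 1, 5 without B6 CD8 replicate 1, 3 without B6 CD8 replicate 2, 4 without FlipFlop CD4 replicate 2 and 3 without FlipFlop CD4 replicate 3. FlipFlop CD8 against B6 CD4 gave 20 to 45, with 20 and 21 without FlipFlop CD8 replicates 2 and 3. For the coreceptor, 8 were left without B6 CD8 replicate 1 or FlipFlop CD4 replicate 1, 7 without FlipFlop CD4 replicate 2 and 6 without FlipFlop CD8 replicate 2. Genes that followed lineage numbered 16 to 28 on the helper and 11 to 16 on the cytotoxic side, and 13 of 21 and 9 of 15 kept that call in all 12 fits. From 1 to 4 followed strain. The cause of these changes was not tested. Values near or under 1 CPM rest on few reads.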

Other observations

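Slc15a2 (PEPT2), a peptide carrier named after its values were seen, had the largest standard error of the 152 tested members, with a strain difference of 1.03 ± 0.48 (SE, adjusted p = 0.11). It stood at 5.898, 0.742 and 3.03 CPM in B6 CD4 T cells, 10.9, 5.06 and 6.43 in FlipFlop CD8, 9.25, 0.8404 and 3.21 in B6 CD8 and 8.54, 4.35 and 4.65 in FlipFlop CD4 T cells, listed by replicate number. In each of the 4 groups the library numbered 1 was the highest and the library numbered 2 the lowest. Where this order comes from was not tested.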
